A study of Mus musculus with 12 samples.

Results

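The comparison described here is that of the left ventricle of mice 3 days after removal of an aortic band (DB3) with the left ventricle of their sham controls (sDB3). It takes in 6 of the 12 arrays of the series, 3 of each group, chosen by their labels, and 10435 of the 18193 genes named on the array. The other genes did not reach a log2 signal of 4 on at least 3 of the 12 arrays and were not tested. All mice were male C57BL/6 and 7 weeks old at the operation. DB3 mice carried a band around the aorta for 4 weeks, the band was taken off, and the heart was collected 3 days later. The labels give sDB3 as a sham procedure followed by debanding. The other groups serve as reference points, namely 4 weeks of banding with the band in place (AB, 3 arrays) and its sham (sAB, 3 arrays). Each array holds the RNA of the left ventricle of 1 mouse, with the right ventricle and the atria removed at dissection, and no label ties a DB3 mouse to an sDB3 mouse. The labels give no measure of the pressure gradient, the heart weight or the completeness of debanding, so the load on each heart is not known here. The tissue holds myocytes, fibroblasts, vessels and blood cells together, so fewer cells of a type and less RNA per cell cannot be told apart.

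A band around the aorta makes the left ventricle eject against a raised pressure. The ventricle thickens, switches on genes of the fetal heart such as Myh7, Acta1 and the natriuretic peptides, and lays down extracellular matrix. Taking the band off lowers the pressure again, and the muscle can lose mass through protein breakdown by the ubiquitin and proteasome system and by autophagy, while collagen that is already in place is removed more slowly.

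The DB3 and sDB3 arrays overlapped in the measures of quality given next. They lay apart in the share of probe sets at the array minimum, 30.4% to 30.9% in DB3 and 29.0% to 30.3% in sDB3. The log2 signal of the 3′ probe set of Actb minus that of its 5′ probe set, a measure of RNA integrity, was 1.11 to 1.32 in DB3 and 1.20 to 1.25 in sDB3, and BioC, a bacterial transcript spiked into each hybridisation, read 8.32 to 8.45 and 8.28 to 8.60. The sAB arrays stood apart with BioC at 10.2 to 10.5, and all comparisons that use sAB carry this difference. Its part in them was not tested, and the labels name no batch. Over the 17817 kept probe sets of the tested genes, arrays correlated at 0.9887 to 0.9905 within DB3, 0.9894 to 0.9929 within sDB3 and 0.9863 to 0.9895 between them. All 16 listed cardiomyocyte markers were measured, with a summed level (log2 of the sum of linear signals) of 18.95 in each DB3 array and 19.02 to 19.05 in sDB3, and 0 of the 16 passed limma's test in either direction (3 lower at an unadjusted p under 0.05). After centring 3 of them were called lower, where 3.33% of all genes were. For 8 of the 16 all DB3 arrays lay below all sDB3 arrays, where this held for 5.74% of all genes. Summed markers of fibroblasts lay at 15.66 to 15.85 in DB3 and 15.47 to 15.53 in sDB3, those of endothelium at 15.35 to 15.42 and 15.27 to 15.33, and those of smooth muscle and pericytes at 15.55 to 15.58 and 15.34 to 15.49, with no overlap in any of the 3 lists. Their part in the results was not tested.

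In 2 sets of transcripts single hearts stood apart. The atrial light chains Myl7 and Myl4 and sarcolipin, Sln, differed widely among hearts of 1 group. Myl7 read 12.41, 12.97 and 10.11 in the sDB3 arrays 1 to 3 and 9.45, 12.72 and 4.67 in the DB3 arrays 1 to 3. Sln followed the same order, with 9.73, 10.56 and 6.89 and 6.88, 10.52 and 2.86. Both groups therefore hold hearts with much and with little atrial transcript, and neither gene passed (adjusted p = 0.306 and 0.417). Of 14 listed atrial markers 12 were tested, with a summed level, Nppa included, of 13.71 to 14.77 in sDB3 and 13.93 to 15.05 in DB3, ranges that overlap. The other such set is that of the circadian clock. Ciart, a clock repressor, read 6.35, 6.65 and 2.85 in sDB3 and 6.15, 6.01 and 6.25 in DB3, and Per2, a core clock repressor, 5.60, 5.69 and 2.71 and 5.16, 5.25 and 5.76. Arntl, which drives the clock and peaks opposite to them, read 5.08, 4.51 and 7.31 and 4.59, 5.47 and 5.79. On these 3 genes sDB3 array 3 differed from the other 5 arrays. These 6 genes were chosen after their values were seen, from lists of atrial and clock genes. Results are given below also without sDB3 array 3 where its absence ends a call.

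Gene expression differed between DB3 and sDB3 in both directions, mostly by modest amounts. By limma, 664 genes passed at an adjusted p under 0.05, which is 6.36% of those tested. Of these 560 were higher in DB3 (5.37%) and 104 lower (0.997%), and 23 of the higher and 8 of the lower genes changed at least 2-fold. All 3 DB3 arrays lay above all 3 sDB3 arrays for 2334 genes (22.4%) and below them for 599 (5.74%), and 558 of the 560 and 104 of the 104 were among them. This split leans on how the arrays are set to a common scale. The median signal of the tested genes was 7.99 to 8.09 on the DB3 arrays and 7.87 to 7.94 on the sDB3 arrays, and the median gene differed by 0.09. Centring each array on its median takes 0.129 from every log2 difference and leaves 127 genes higher (1.22%) and 348 lower (3.33%). Quantile normalization left 83 higher (0.795%) and 105 lower (1.01%). In a fit of the 6 arrays alone, with no other group to estimate the spread, 0 genes passed. The smallest adjusted p there was 0.0783, and 2137 genes lay at an unadjusted p under 0.05, against 2699 in the fit of 4 groups. All calls below therefore rest on the spread pooled over the 4 groups. Leaving out 1 array at a time left 170 to 459 calls, lowest without sDB3 array 2 and highest without sDB3 array 3. Under all 3 scalings 65 genes were called higher and 77 lower, and 62 of these, 50 higher and 12 lower, were also called in each of the 6 fits that left out 1 array. The 50 include Myh7, Nppa, Thbs2, Gabarapl1 and Hmox1, and the 12 include Alas1, Cish, Socs2, Calr and Hspb3. In the text that follows, every difference is DB3 minus sDB3 in log2 units with its standard error, n = 3 arrays per group, before centring, and p-values are limma's, adjusted over the 10435 genes. No call named below changed its sign under either other scaling.

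**Figure D1:**
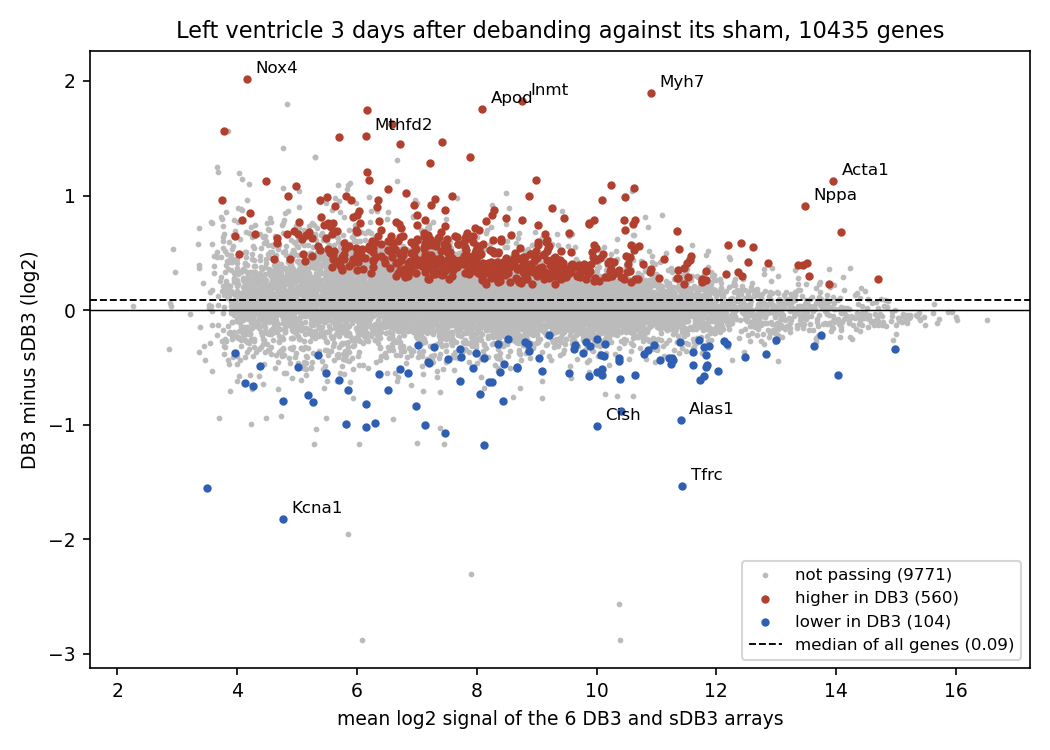
Each point is 1 of 10435 genes, with its mean log2 signal over the 6 arrays on the horizontal axis and DB3 minus sDB3 (log2) on the vertical axis. Red marks the 560 genes called higher and blue the 104 called lower, and the dashed line marks the median gene at 0.09, above 0. The largest falls among gray points are atrial transcripts such as Myl7, which varied widely within groups.

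Part of the hypertrophic programme was still raised 3 days after debanding, and part did not pass the test. The 27 genes listed for this programme include 26 that were tested. Of these 5 were higher and 1 lower, with a median difference of 0.046 against 0.09 for all genes, where 5.37% and 0.997% of all genes were called. Centring left 3 higher and 1 lower, and quantile normalization 4 and 0. Myh7 encodes the slow beta-myosin heavy chain of the fetal ventricle. It read 9.87, 9.79 and 10.23 in sDB3 and 11.97, 11.42 and 12.18 in DB3, groups that do not overlap, and rose by 1.89 ± 0.25 (3.71-fold, adjusted p = 0.00929). Nppa, the precursor of atrial natriuretic peptide, read 12.93, 13.11 and 13.06 in sDB3 and 13.56, 13.99 and 14.29 in DB3. All 3 DB3 hearts were above all sham hearts, with the gap widest for DB3 array 3, and Nppa rose by 0.91 ± 0.16 (adjusted p = 0.0171). That array also had the lowest Myl7 of the 6, while sDB3 array 2 had both the highest Nppa and the highest Myl7 of its group. The part of atrial transcript in the Nppa difference was not tested. Acta1, skeletal alpha-actin, which the fetal heart also uses, read 13.59, 12.90 and 13.68 and 14.24, 14.53 and 14.78. The DB3 hearts lay above the sham hearts and the difference was 1.13 ± 0.21 (adjusted p = 0.0237). Ankrd1, a stretch-responsive cofactor of the sarcomere and nucleus, read 13.47, 13.81 and 13.92 and 14.58, 14.23 and 14.43, a difference of 0.68 ± 0.13 (adjusted p = 0.0246). Des, the intermediate filament desmin, differed by 0.29 ± 0.07 (adjusted p = 0.0385). Myh7 and Nppa passed in every fit that left out 1 array and under both other scalings. The call of Acta1 ended without DB3 array 2 or 3 (adjusted p up to 0.054), that of Ankrd1 without DB3 array 1 or 3 or sDB3 array 1 or 2 (up to 0.0678), and that of Des without any array but DB3 array 2 (up to 0.103). Des was also lost by centring and by quantile normalization (adjusted p = 0.185 and 0.0783). Centring ended the call of Ankrd1 by a narrow margin (adjusted p = 0.05).

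Nppb, the precursor of B-type natriuretic peptide, lay lower on average in DB3, unlike Nppa, and did not pass. It read 12.49, 12.75 and 12.66 in sDB3 and 11.79, 12.29 and 12.74 in DB3, values that overlap, with DB3 arrays 1 and 2 below all sham hearts and DB3 array 3 among the highest of the 6. The difference was -0.36 ± 0.19 (adjusted p = 0.255). Receptors of these peptides were called higher. Npr3, which clears natriuretic peptides, rose by 0.40 ± 0.087 and Npr2, the receptor of the C-type peptide, by 0.29 ± 0.068 (adjusted p = 0.0309 and 0.0351), and the other tested probe set of Npr3 gave 0.94. Both calls ended under centring (adjusted p = 0.103 and 0.206) and quantile normalization (0.134 and 0.151), and when 1 of 5 arrays was left out, any but sDB3 array 2 for Npr2 and any but sDB3 array 1 for Npr3 (up to 0.0939 and 0.0787).

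**Figure D2:**
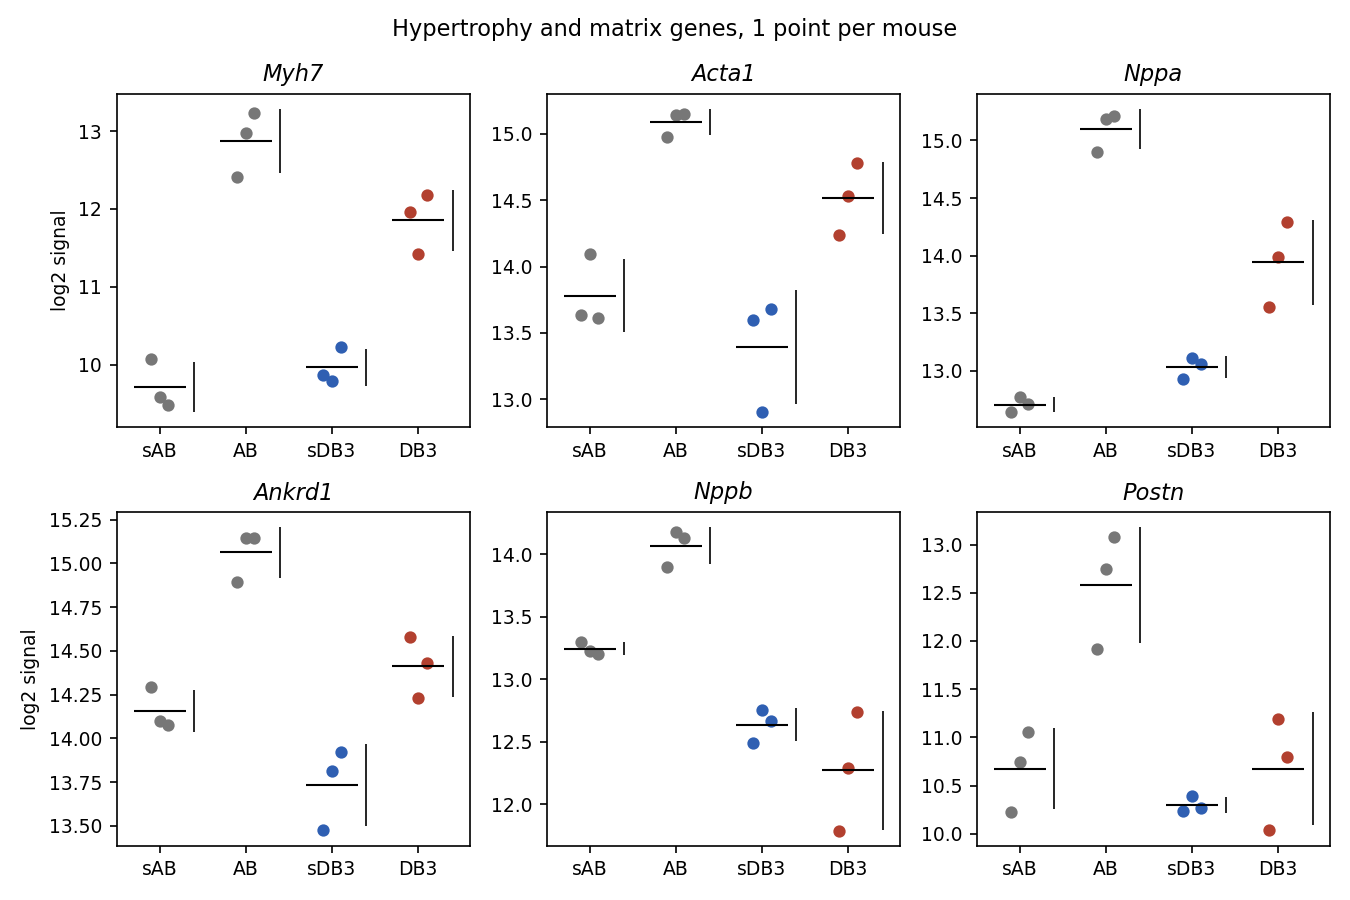
Log2 signal of 6 genes in the 4 groups, with 1 point per mouse, the bar at the mean and the thin line spanning 1 SD on each side. For Myh7, Acta1, Nppa and Ankrd1 the 3 DB3 hearts lie above the 3 sDB3 hearts, while for Nppb and Postn the DB3 and sDB3 hearts overlap.

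Among the 5 raised genes of this programme, promoters were examined for the 4 that are also on the fixed list of genes to be named, which does not hold Des. The sequence before and around their starts shows which letters known for muscle promoters lie there. Promoters were taken from RefSeq (GRCm38.p6), from 250 bases before to 50 after the start site, and were searched on both strands for CATTCC, the MCAT element bound by TEAD factors, and for TATAAA. Capitals mark CATTCC, its reverse complement GGAATG, or TATAAA. Of all 32851 promoters of the table, 14.7% held CATTCC, and TATAAA was found in 13.6%.
Acta1 (chr8:123894726-123895025, minus strand): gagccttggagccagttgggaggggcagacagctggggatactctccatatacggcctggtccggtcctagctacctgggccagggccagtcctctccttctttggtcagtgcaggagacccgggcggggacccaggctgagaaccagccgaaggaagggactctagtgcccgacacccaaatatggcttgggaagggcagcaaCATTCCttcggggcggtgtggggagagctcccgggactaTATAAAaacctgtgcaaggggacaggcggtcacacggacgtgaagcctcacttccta
Ankrd1 (chr19:36119795-36120094, minus strand): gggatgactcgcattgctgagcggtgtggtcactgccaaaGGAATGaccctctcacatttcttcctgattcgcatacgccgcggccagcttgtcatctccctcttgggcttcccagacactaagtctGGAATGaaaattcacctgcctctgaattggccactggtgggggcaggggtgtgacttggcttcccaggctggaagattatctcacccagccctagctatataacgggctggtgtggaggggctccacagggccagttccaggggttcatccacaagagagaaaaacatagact
Myh7 (chr14:54994577-54994876, minus strand): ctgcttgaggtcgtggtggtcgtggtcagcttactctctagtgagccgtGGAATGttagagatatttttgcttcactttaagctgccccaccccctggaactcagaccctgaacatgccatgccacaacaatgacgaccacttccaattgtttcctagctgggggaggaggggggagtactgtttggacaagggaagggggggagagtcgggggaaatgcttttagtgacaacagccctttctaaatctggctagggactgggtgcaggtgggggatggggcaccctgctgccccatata
Nppa (chr4:148000472-148000771, plus strand): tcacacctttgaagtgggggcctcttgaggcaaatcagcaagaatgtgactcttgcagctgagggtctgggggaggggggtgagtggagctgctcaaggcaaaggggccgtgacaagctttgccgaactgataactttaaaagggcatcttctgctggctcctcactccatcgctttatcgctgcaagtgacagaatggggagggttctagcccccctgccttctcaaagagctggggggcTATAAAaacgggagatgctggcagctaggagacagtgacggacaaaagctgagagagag
Acta1 holds CATTCC with its first base at -46 from the start site, and TATAAA at -7. Ankrd1 holds GGAATG at -210 and at -123. Myh7 has 2 start sites in the table, and the window of the upstream one holds GGAATG at -201 while the window of the other one (start 54994500) holds neither motif. Nppa holds TATAAA at -9 and no CATTCC. The AP-1 letters TGANTCA, found in 7.81% of all promoters, are in none of these windows, and CANNTG, the E-box, is in each of them and in 72.3% of all promoters. A match describes the letters only.

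Banding with the band in place gives the scale for these residual differences. AB against sAB shares no array with DB3 against sDB3. In it 1256 genes (12%) were called higher and 802 (7.69%) lower. For Myh7 the effect of banding was 3.16 ± 0.25 and that after debanding 1.89. DB3 lay below AB by 1.02 for Myh7 (adjusted p = 0.031), by 1.16 for Nppa (0.0026), by 0.65 for Ankrd1 (0.0138) and by 1.80 for Nppb (0.000826). For Acta1 the difference of DB3 from AB was -0.58 ± 0.21 (adjusted p = 0.12), with an effect of 1.31 ± 0.21 while banded. Of the 26 tested genes of the programme, 17 were lower in DB3 than in AB and 0 higher, where 9.16% of all genes were called in either direction. Some genes that banding raised were close to the sham after debanding. Rcan1, a feedback inhibitor of calcineurin, had an effect of 1.31 ± 0.22 while banded and 0.028 ± 0.22 after. Synpo2l, a Z-disc protein, had 1.24 ± 0.15 and -0.0086 ± 0.15, Nmrk2, a kinase of NAD synthesis, 1.95 ± 0.36 and -0.53 ± 0.36, and Uchl1, a deubiquitinase, 1.18 ± 0.24 and 0.027 ± 0.24. These 4 were chosen after their values were seen, and none passed in DB3 against sDB3 (adjusted p from 0.381 to 0.979).

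Over all genes the lists of the 2 comparisons shared a minority of their calls, but each shared part was larger than the rate among all genes. Of the genes called higher in DB3 against sDB3, 157 were also higher in AB against sAB, which is 28.0% of the DB3 list and 12.5% of the AB list, and 14 were lower. Of those called lower in DB3, 31 were also lower in AB, 29.8% and 3.87% of the 2 lists, and 4 were higher. Separately, 157 genes were at least 2-fold higher in AB than in sAB. Their median effect was 1.24 while banded and 0.28 after debanding, where the median of all genes was 0.09. Of them 128 kept the sign and 24 were called higher in DB3, where 5.37% of all genes were. For the 41 genes at least 2-fold lower in AB the medians were -1.32 and -0.27, and 30 kept the sign. In DB3 0 of the 41 were called lower by limma, where 0.997% of all genes were, and 2699 of all genes lay at an unadjusted p under 0.05. Both sets were picked for a large effect while banded, so a smaller median after debanding is partly set by that choice. By an interaction test, which uses the sAB arrays, DB3 minus sDB3 and AB minus sAB differed for 630 genes (6.04%). Of the named genes 23 were among them, 15 with the lower and 8 with the higher effect after debanding. In the hypertrophic programme these were Nppa (-1.48 ± 0.22, adjusted p = 0.0075), Nppb (-1.19 ± 0.27, adjusted p = 0.0325) and Des (-0.47 ± 0.099, adjusted p = 0.0263).

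**Figure D3:**
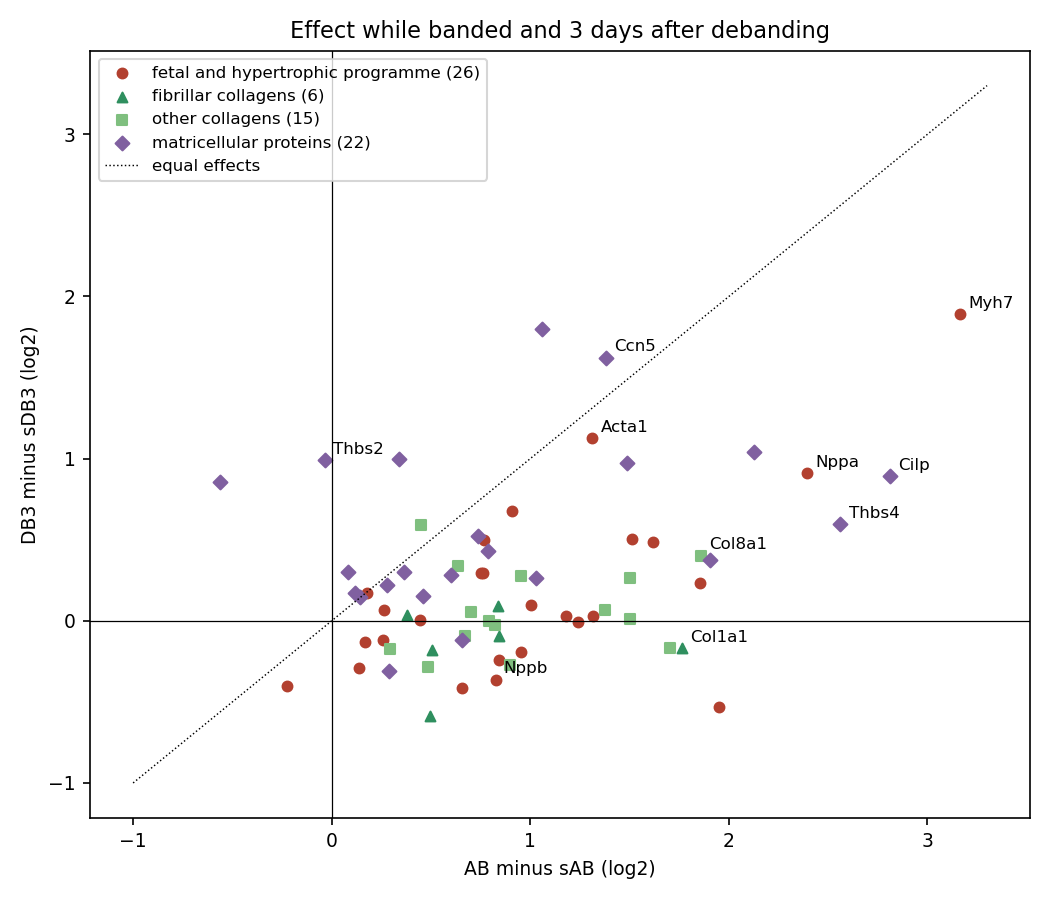
Each point is a gene of 1 of 4 lists, with AB minus sAB (log2) on the horizontal axis and DB3 minus sDB3 (log2) on the vertical axis, and the dotted line marks equal effects. Most points lie below the line, with collagens spread around 0 on the vertical axis, and Thbs2 lies near 0 on the horizontal axis and at 0.99 on the vertical axis.

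No collagen transcript passed the test between DB3 and sDB3 before centring. Of 6 tested fibrillar collagens (8 listed) and 15 tested other collagens (16 listed), 0 were called by limma in DB3 against sDB3, and at an unadjusted p under 0.05 there were 1 lower fibrillar collagen and 0 others. After centring 1 was called lower, Col5a3, of type V collagen, and 1 fibrillar collagen was called lower without sDB3 array 2. The median differences of the 2 lists were -0.13 and 0.014 against 0.09 for all genes. Single arrays moved them and turned their sign, to 0.17 and 0.17 without DB3 array 1 and to -0.52 and -0.11 without DB3 array 2. Banding gave medians of 0.67 and 0.82 with 1 and 10 called higher. Col1a1, a chain of type I collagen, read 9.58, 10.11 and 9.69 in sDB3 and 8.96, 10.63 and 9.27 in DB3. DB3 array 2 was the highest of the 6 hearts and the other 2 DB3 hearts the lowest, and the difference was -0.17 ± 0.47 (adjusted p = 0.851). Col3a1, of type III collagen, showed the same arrangement with a difference of -0.18 ± 0.41 (adjusted p = 0.813). Col8a1, a short-chain collagen, read 9.22, 9.23 and 9.31 and 9.62, 9.58 and 9.76. All DB3 hearts lay above all sham hearts, yet the difference of 0.40 ± 0.20 did not pass (adjusted p = 0.224). Postn, periostin, a product of activated fibroblasts, differed by 0.37 ± 0.34 (adjusted p = 0.516) and Timp1, which blocks matrix-degrading enzymes, by -0.10 ± 0.54 (adjusted p = 0.928). Col8a1 and Postn lay below AB by 1.66 and 1.91 (adjusted p = 0.00144 and 0.00788).

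Among matrix genes other than collagens some were higher in DB3. Of 22 tested matricellular proteins (26 listed) 3 were higher and 0 lower, where 5.37% of all genes were higher, with a median of 0.40 (0.27 after centring and 0.34 after quantile normalization), and centring or quantile normalization each left 2 higher. Thbs2, thrombospondin 2, which binds and helps clear matrix proteases, read 7.19, 7.17 and 6.90 in sDB3 and 8.14, 8.0 and 8.10 in DB3. The groups were far apart, the rise was 0.99 ± 0.16 (adjusted p = 0.0146), and it held in each fit that left out 1 array. The 3 probe sets of Thbs2 ranged from 0.32 to 0.99. While banded its effect was -0.034 ± 0.16, and DB3 lay 1.23 ± 0.16 above AB (adjusted p = 0.00202). Tgfbi, an adhesion protein induced by TGF-beta, rose by 1.0 ± 0.18 (adjusted p = 0.0204), a call that ended without DB3 array 2 or 3 (up to 0.0509). Ccn5, a relative of connective tissue growth factor, read 5.71, 5.62 and 6.0 and 7.26, 7.01 and 7.94, a rise of 1.62 ± 0.40 (adjusted p = 0.0422). Its call ended whichever of the 6 arrays was left out (up to 0.104) and after centring and quantile normalization (adjusted p = 0.0576 and 0.078). Ccn2, connective tissue growth factor, read 10.26, 10.50 and 9.47 and 10.39, 11.41 and 11.55, so that DB3 array 1 lay among the sham hearts, and its difference of 1.04 ± 0.34 did not pass (adjusted p = 0.0898). Cilp, a cartilage matrix protein that overloaded hearts express, read 8.21, 8.08 and 8.01 and 8.58, 9.18 and 9.22. DB3 hearts lay above the sham hearts by 0.89 ± 0.35 (adjusted p = 0.144) and below AB by 1.93 (adjusted p = 0.00894).

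Among 19 tested proteoglycans (24 listed) 3 were higher, where 5.37% of all genes were, with a median of 0.21, and 0 were left by centring or quantile normalization. They were Prelp and Dcn, small leucine-rich proteoglycans that bind collagen (0.79 ± 0.19 and 0.41 ± 0.11), and Gpc6, a glypican of the cell surface (0.53 ± 0.12). Their calls ended for Dcn without any 1 array and for the other 2 without all but 1 of the 6, DB3 array 1 in both cases (adjusted p up to 0.119, 0.0977 and 0.0955). Of 13 tested elastic fibre genes 2 were higher, where 5.37% of all genes were. Fbln5, which assembles elastic fibres, rose by 0.79 ± 0.16 (adjusted p = 0.0253) and Ltbp4, which tethers latent TGF-beta to them, by 0.30 ± 0.071 (0.0392). Fbln5 lost its call without DB3 array 2 or 3 or sDB3 array 1 or 3 (up to 0.0611) and under quantile normalization (0.0532), and Ltbp4 without any 1 array (up to 0.0964) and under both scalings (0.228 and 0.0866). Of 19 tested genes of collagen processing 2 were higher, where 5.37% of all genes were. P3h2, a collagen prolyl 3-hydroxylase, rose by 0.56 ± 0.097 (adjusted p = 0.0171), passed without each single array, and lay at 0.051 under quantile normalization. Pcolce2, an enhancer of procollagen cleavage, rose by 0.46 ± 0.12 (0.0498), a call lost without any 1 array (up to 0.123) and under both scalings (0.145 and 0.136). Ctsl, a lysosomal protease that also degrades matrix, read 12.45, 12.23 and 12.33 in sDB3 and 12.90, 12.90 and 12.87 in DB3. The 3 DB3 hearts were nearly equal, and Ctsl rose by 0.55 ± 0.086 (adjusted p = 0.0143) in each fit that left out 1 array and under both other scalings. Itgb5, an integrin chain that binds vitronectin, rose by 0.79 ± 0.13 (adjusted p = 0.0161), also in each. DB3 array 2 had the highest Col1a1 and Postn of its group and also the highest Myl7, and without it the medians of matricellular proteins and proteoglycans were 0.20 and 0.12, with 1 and 0 called higher. Without DB3 array 1 they were 0.72 and 0.18, with 2 and 2 called. Of 20 tested fibroblast markers, whose summed level was also higher in DB3, 2 were called higher, where 5.37% of all genes were. They were Dcn and Gsn, the actin-severing protein gelsolin (0.27 ± 0.056, adjusted p = 0.0281, up to 0.0686 without any 1 array). Centring ended both calls (adjusted p = 0.126 and 0.221).

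**Figure D4:**
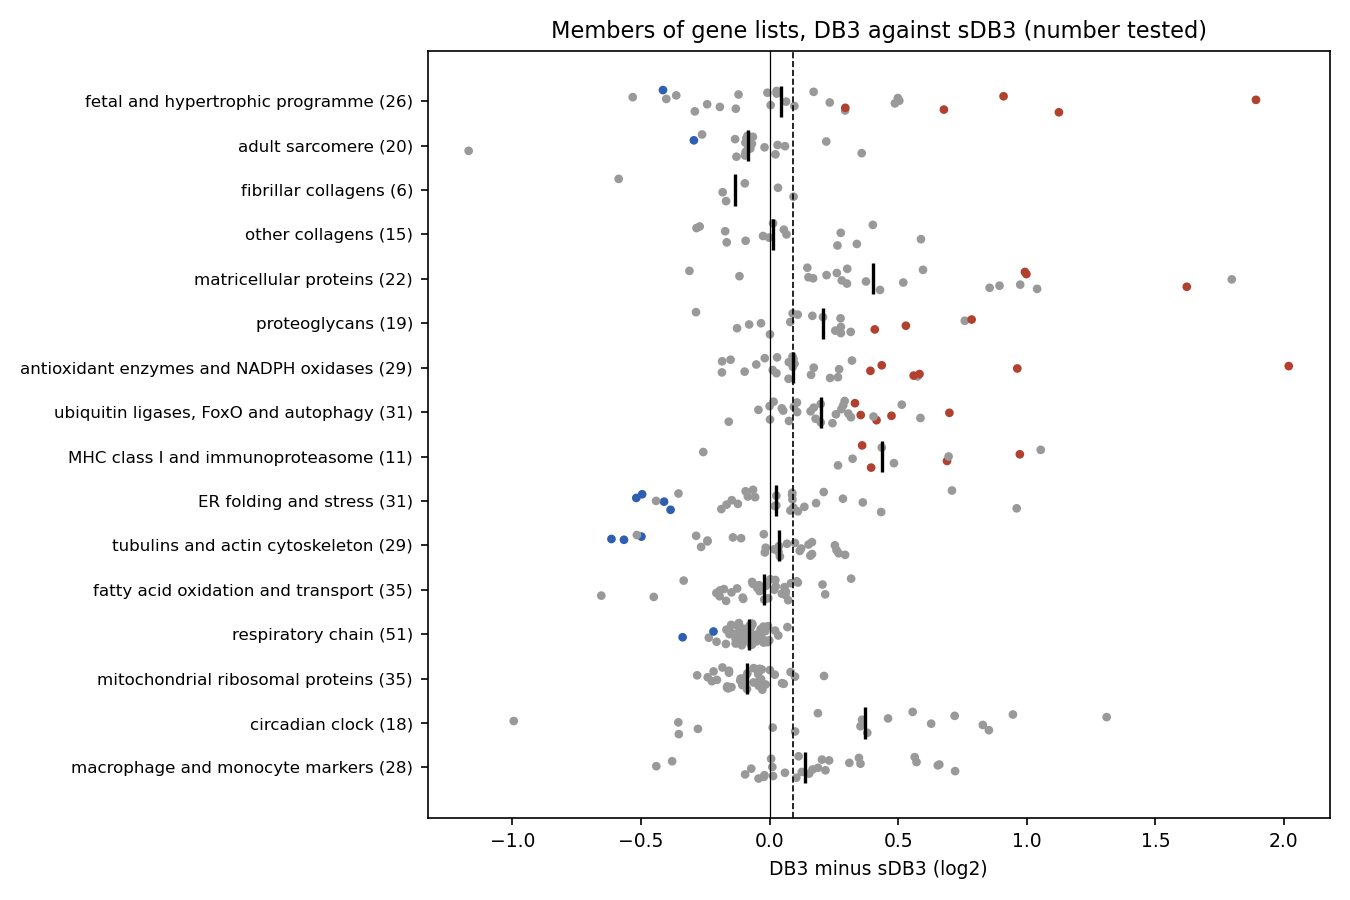
DB3 minus sDB3 (log2, horizontal axis) for the tested members of 16 gene lists, 1 row per list with its number tested, where red and blue points passed the test, gray did not, and the black tick is the list's median. The dashed line is the median of all genes at 0.09, and the medians of MHC class I genes (0.44) and matricellular proteins (0.40) lie to its right.

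Alas1, Cish, Socs2 and Cited4 were among the 12 genes lower in each scaling and each fit that left out 1 array. Alas1, the rate-limiting enzyme of heme synthesis, read 12.14, 11.70 and 11.84 in sDB3 and 10.89, 11.06 and 10.84 in DB3. Every DB3 heart was far below every sham heart, and Alas1 fell by 0.96 ± 0.11 (adjusted p = 0.00465). Tfrc, the transferrin receptor that brings iron into the cell, read 12.68, 11.23 and 12.70 and 10.93, 10.60 and 10.45. The sham hearts were split, array 2 lying near the DB3 hearts and the other 2 much higher, and Tfrc fell by 1.54 ± 0.34 (adjusted p = 0.0318). Its call ended when any array but sDB3 array 2 was left out (up to 0.0795). Banding itself had effects of -0.17 ± 0.11 and 0.098 ± 0.34 on these genes, and DB3 lay below AB by 0.86 and 1.69 (adjusted p = 0.00202 and 0.0128). Hmox1, heme oxygenase 1, which breaks heme down, moved the other way. It read 4.85, 5.13 and 4.71 and 5.89, 5.81 and 5.89, a rise of 0.96 ± 0.17 (adjusted p = 0.0172). Alas1 and Hmox1 passed in each fit that left out 1 array and under both other scalings.

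Cish and Socs2 are induced by STAT5 and dampen growth hormone and cytokine receptors. Cish read 10.64, 10.61 and 10.27 in sDB3 and 9.59, 9.56 and 9.34 in DB3 and fell by 1.01 ± 0.14 (adjusted p = 0.0102). It was also lower while banded, by 0.81 (adjusted p = 0.00325). Socs2 read 10.61, 10.89 and 10.58 and 10.24, 9.998 and 10.04 and was lower by 0.60 ± 0.096 (adjusted p = 0.0143), with an effect of 0.013 ± 0.096 while banded. Its 4 probe sets ranged from -0.60 to -0.19. For Socs2 DB3 did not differ from AB by limma (0.033 ± 0.096, adjusted p = 0.874), and the sham means were 10.69 (sDB3) and 10.05 (sAB). Cited4, a transcriptional cofactor linked to growth of the exercised heart, read 7.76, 7.57 and 7.59 and 6.73, 6.77 and 6.39, and its fall of 1.01 ± 0.11 had the adjusted p 0.00423. None of these groups overlapped, and Cish, Socs2 and Cited4 passed in each fit that left out 1 array and under both other scalings. Mycn, a transcription factor of growth, fell by 0.99 ± 0.22 (adjusted p = 0.0334), a call that ended without any array but DB3 array 1 (up to 0.0814). Vegfa, the vascular endothelial growth factor, fell by 0.57 ± 0.14 (adjusted p = 0.0423), a call that ended without any 1 array (up to 0.108) and under quantile normalization (0.0569). The shared signalling chain of the interleukin 6 receptors, Il6st, rose by 0.45 ± 0.06 (adjusted p = 0.00938) in each fit that left out 1 array and under both other scalings. Igfbp5, which binds insulin-like growth factors, read 10.37, 10.10 and 10.24 and 10.88, 11.26 and 10.82 and rose by 0.75 ± 0.12 (adjusted p = 0.0146), also in each. Igf1r, the receptor of these factors, rose by 0.35 ± 0.08 (adjusted p = 0.0335), but its 4 probe sets ranged from -0.18 to 0.80, and it was lost by centring (0.0855), by quantile normalization (0.11) and without any array but DB3 array 2 (up to 0.0915).

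**Figure D5:**
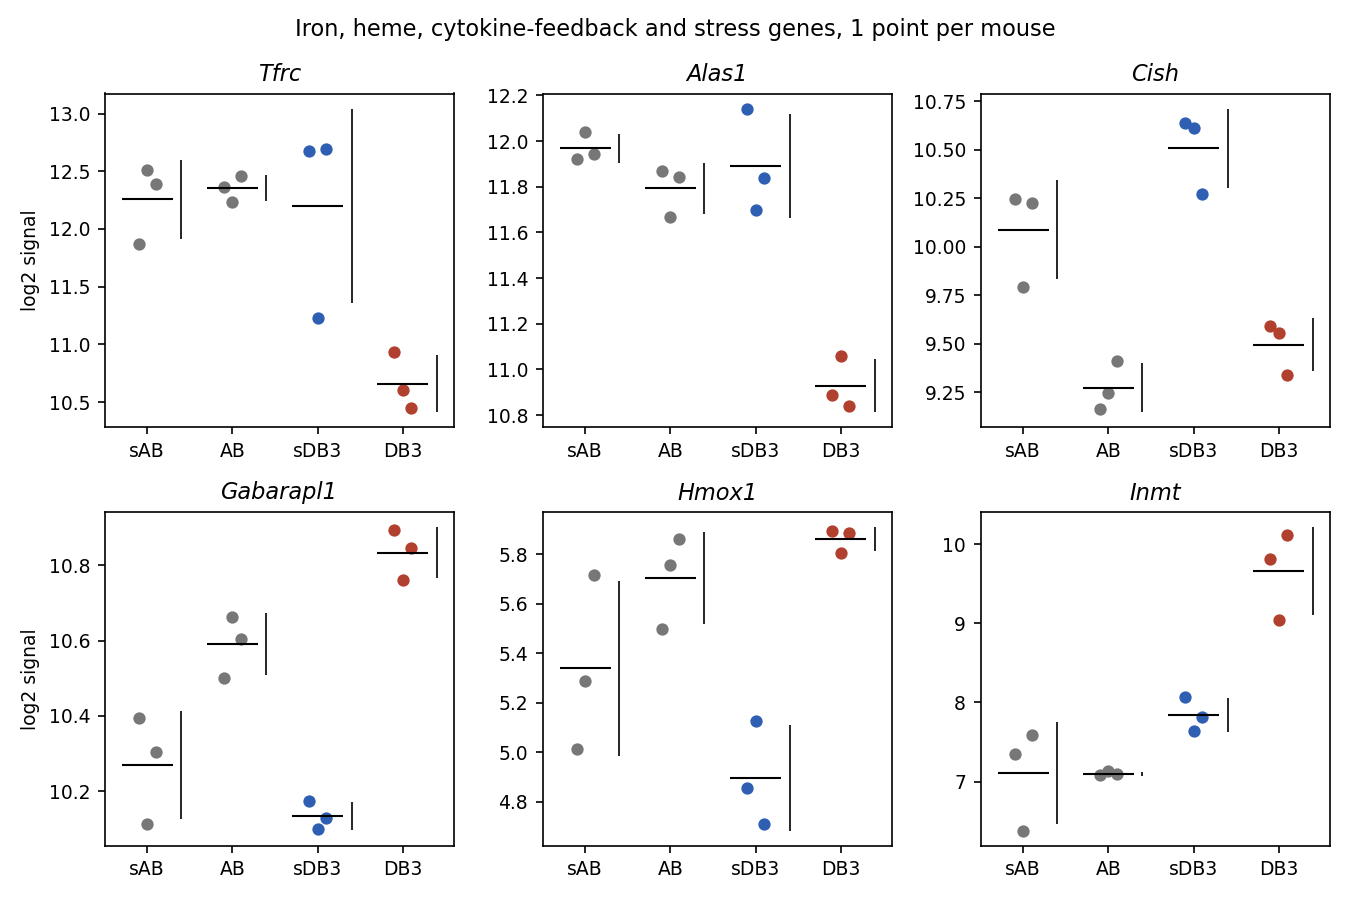
Log2 signal of 6 genes in the 4 groups, with 1 point per mouse, the bar at the mean and the thin line spanning 1 SD on each side. Alas1, Tfrc and Cish are lower in all 3 DB3 hearts than in all 3 sDB3 hearts, and Gabarapl1, Hmox1 and Inmt are higher.

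Some chaperones of the endoplasmic reticulum and some tubulins were lower in DB3. Of 31 tested genes of folding and stress in the endoplasmic reticulum (32 listed) 0 were higher and 4 lower, with a median of 0.026, where 5.37% and 0.997% of all genes were called. Centring left 0 and 6, where 1.22% and 3.33% of all genes were called, and quantile normalization 0 and 3. Calr, the calcium-binding chaperone calreticulin, read 13.05, 13.08 and 12.95 in sDB3 and 12.66, 12.66 and 12.60 in DB3. The spread within each group was small, and Calr was lower by 0.39 ± 0.067 (adjusted p = 0.0172), where AB lay above sAB by 0.48 ± 0.067. DB3 did not differ from AB by limma (-0.083 ± 0.067, adjusted p = 0.486), and the mean of sDB3 (13.03) lay above that of sAB (12.25). Pdia6, a disulfide isomerase, fell by 0.50, Manf, a secreted protein of the stress response, by 0.52, and Hsp90b1, the chaperone GRP94, by 0.41 (adjusted p = 0.0259, 0.0452 and 0.03). Hspa5, the chaperone BiP, chosen after its values were seen, lay at -0.44 ± 0.12 and did not pass (adjusted p = 0.0612). Calr passed in each fit that left out 1 array. The call of Pdia6 ended without sDB3 array 1 or 2 (up to 0.0626), that of Manf without DB3 array 1 or 3 or sDB3 array 2 or 3 (up to 0.126) and that of Hsp90b1 without any array but sDB3 array 3 (up to 0.0775). Manf was also lost under quantile normalization (0.0566).

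Of 29 tested tubulin and actin cytoskeleton genes (34 listed) 0 were higher and 3 lower, with a median of 0.035, where 5.37% and 0.997% of all genes were called. Tuba4a read 14.35, 14.26 and 14.33 in sDB3 and 13.70, 13.98 and 13.56 in DB3, with no overlap, and fell by 0.57 ± 0.094 (adjusted p = 0.0161) in each fit that left out 1 array and under both other scalings. Tuba8 fell by 0.61 and Tubb4b by 0.50 (adjusted p = 0.0489 and 0.0324). The Tuba8 call ended without any array but sDB3 array 2 (up to 0.115) and under quantile normalization (0.0662), and that of Tubb4b without DB3 array 1 or 3 or sDB3 array 1 or 3 (up to 0.0885). Alpha- and beta-tubulin genes are near copies, and probe sets may cross-hybridise between them. Of 24 tested cytosolic heat shock genes 1 was higher and 1 lower, where 5.37% and 0.997% of all genes were called. Hspb3, a small heat shock protein of muscle, read 8.61, 8.46 and 8.65 and 7.78, 7.94 and 8.11 and fell by 0.63 ± 0.086 (adjusted p = 0.00938) in each fit that left out 1 array and under both other scalings. Its effect while banded was -0.097 ± 0.086, and DB3 lay below AB by 1.04 (adjusted p = 0.000397). Hspa2 rose by 0.59 ± 0.13 (adjusted p = 0.033), lost without any 1 array (up to 0.0842) and under both scalings (0.0606 and 0.0831).

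Calls among genes of ubiquitin ligases, FoxO and autophagy were all upward. Of 31 tested genes of ubiquitin ligases, FoxO and autophagy (35 listed) 5 were higher and 0 lower, where 5.37% of all genes were higher, with a median of 0.20 (0.070 after centring), while centring left 1 higher and quantile normalization 2. Gabarapl1, a member of the ATG8 family on the autophagosome, read 10.17, 10.10 and 10.13 in sDB3 and 10.89, 10.76 and 10.85 in DB3. The hearts of each group were close together, and Gabarapl1 rose by 0.70 ± 0.081 (adjusted p = 0.00465), passing in each fit that left out 1 array and under both other scalings. Bnip3, a receptor for removal of mitochondria, rose by 0.42 ± 0.085, Fbxo32, the muscle ubiquitin ligase atrogin-1, by 0.47 ± 0.12, and Foxo1, a transcription factor of muscle atrophy, by 0.35 ± 0.093 (adjusted p = 0.0275, 0.0498 and 0.0498). Bnip3 lost its call without DB3 array 1 or 3 or sDB3 array 2 or 3 (up to 0.0685) and by centring (0.0849). Fbxo32 and Foxo1 lost theirs without any array but sDB3 array 3 (up to 0.13 and 0.128) and under both scalings (0.139 and 0.113, and 0.162 and 0.138). Of 33 tested proteasome subunits 2 were higher, near the 5.37% of all genes, and the list's median was 0.026. They were Psmd2 and Psmd7 of the regulatory particle (0.27 ± 0.07 and 0.27 ± 0.065, adjusted p = 0.0498 and 0.0392). Both were lost without any 1 array (up to 0.133 and 0.096), by centring (0.284 and 0.241) and by quantile normalization (0.0897 and 0.081).

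Some antioxidant genes were called higher. Of 29 tested antioxidant enzymes and NADPH oxidases (32 listed) 6 were higher and 0 lower, where 5.37% of all genes were higher, with a median of 0.093, centring left 2 higher and 1 lower and quantile normalization 1 higher. Nox4, an NADPH oxidase that makes hydrogen peroxide, was dim in sDB3. It read 3.86, 2.75 and 2.88 in sDB3, at or below the log2 signal of 4 taken as the limit, and 4.38, 5.43 and 5.73 in DB3, with no overlap. Against that limit its DB3 mean was at least 2.27-fold higher, and the measured values gave adjusted p = 0.0351. Its other tested probe set gave 0.79, and its call ended without DB3 array 2 or 3 or sDB3 array 2 or 3 (up to 0.0957) and under quantile normalization (0.061). Besides Hmox1, above, Gpx3, the extracellular glutathione peroxidase, rose by 0.58 ± 0.14 and Gclm, a subunit of the enzyme that starts glutathione synthesis, by 0.56 ± 0.15 (adjusted p = 0.0374 and 0.05, the latter just under the threshold before rounding). Gpx3 was lost without any 1 array (up to 0.0928) and Gclm without any but sDB3 array 2 (up to 0.139), and both under centring (0.072 and 0.112) and quantile normalization (0.0589 and 0.14). Mt2, a metallothionein that binds zinc, which is on the lists of acute phase and glucocorticoid genes and not on this one, read 10.01, 9.51 and 9.57 and 10.73, 10.61 and 11.03 and rose by 1.09 ± 0.23 (adjusted p = 0.0279), a call lost without DB3 array 1 or 3 or sDB3 array 2 or 3 (up to 0.0754).

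Some antigen presentation genes were called higher in DB3, none of them under quantile normalization. Of 11 tested genes of MHC class I and the immunoproteasome (15 listed) 4 were higher and 0 lower, where 5.37% of all genes were higher, with a median of 0.44. Centring left 1 higher, Psmb9, and 1 lower, Psme1, a proteasome activator subunit whose DB3 arrays all lay below the sham arrays (-0.26 ± 0.092 before centring), and quantile normalization 0 and 0. Psmb9, an immunoproteasome subunit, read 6.71, 6.62 and 7.14 in sDB3 and 8.31, 7.83 and 7.25 in DB3. DB3 array 1 was highest and DB3 array 3 was close to the highest sham heart, sDB3 array 3, and the difference was 0.97 ± 0.23 (adjusted p = 0.0357). H2-K1, a class I heavy chain, had the same order within DB3, 11.97, 11.80 and 11.31, and differed by 0.69 ± 0.18 (adjusted p = 0.0485). B2m, the light chain, and Tapbp, which loads peptides, differed by 0.39 ± 0.096 and 0.36 ± 0.086 (adjusted p = 0.0414 and 0.0399). Without 1 array, 0 to 4 genes of the list were called, 0 without DB3 array 1 or 2 or sDB3 array 1. Psmb9 was lost without DB3 array 1 or 2 or sDB3 array 1 or 2, H2-K1 without any array but DB3 array 3, B2m without any but sDB3 array 2 and Tapbp without any 1 array (up to 0.0976, 0.136, 0.109 and 0.0977). H2-K1 and its relatives are a family of near-identical genes, and probe sets may not tell them apart. Of 25 tested interferon-stimulated genes 1 was higher, where 5.37% of all genes were. It was Ifit2, by 0.67 ± 0.17 (adjusted p = 0.0441, up to 0.128 without any array but sDB3 array 3). The Ifit2 call was also lost by centring (0.0801) and quantile normalization (0.1). Of 28 tested macrophage and monocyte markers 0 passed by limma (3 higher at an unadjusted p under 0.05), with a median of 0.14 and a summed level of 14.77 to 14.98 in DB3 and 14.50 to 14.77 in sDB3, ranges that lie next to each other without overlap. Most markers of neutrophils (3 of 12 tested), of lymphocytes (3 of 19) and of mast cells (1 of 7) were too dim to test.

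Few metabolic and contractile genes were called. Of 35 tested genes of fatty acid oxidation and transport (38 listed) 0 passed by limma (median -0.021, with 3 lower at an unadjusted p under 0.05). Centring gave 3 lower, where 3.33% of all genes were lower after centring. Banding gave 17 lower and a median of -0.21, where 7.69% of all genes were lower in AB. Of 51 tested respiratory chain genes (54 listed) 0 were higher and 2 lower, with a median of -0.080, where 5.37% and 0.997% of all genes were called. For 30 of the 51 all DB3 hearts lay below all sham hearts, where this held for 5.74% of all genes. Centring left 11 lower, where 3.33% of all genes were, and quantile normalization 0. Cycs, cytochrome c, fell by 0.34 ± 0.072 (adjusted p = 0.03), a call lost without DB3 array 1 or 3 or sDB3 array 1 or 2 (up to 0.0806) and under quantile normalization (0.0919). The other was Ndufb8, of complex I, whose 2 probe sets went opposite ways (-0.22 and 0.19). Of 35 tested mitochondrial ribosomal proteins 0 passed by limma (median -0.086), with 8 lower and 1 higher at an unadjusted p under 0.05. After centring 9 were lower, where 3.33% of all genes were. Tfam, which packages and transcribes mitochondrial DNA, read 10.35, 10.24 and 10.28 in sDB3 and 9.97, 9.98 and 10.03 in DB3, with no overlap, and fell by 0.30 ± 0.059 (adjusted p = 0.0259), lost without DB3 array 1 or 2 or sDB3 array 1 (up to 0.064). Ppargc1a, a coactivator of mitochondrial genes, read 11.68, 11.01 and 10.25 and 10.33, 10.15 and 10.19. The sham hearts were widely spread, with sDB3 array 3 near the DB3 hearts, and the difference of -0.75 ± 0.27 did not pass (adjusted p = 0.115). Of 25 tested glycolysis genes 1 was higher, where 5.37% of all genes were. Pfkfb3, which makes the activator of phosphofructokinase, read 5.88, 5.88 and 5.88 and 7.18, 6.45 and 6.90 and rose by 0.96 ± 0.16 (adjusted p = 0.0161) in each fit that left out 1 array and under both other scalings. The same deposited value stands on all 3 sDB3 arrays, on 2 sAB arrays and on 1 AB array, so that sDB3 shows no spread, and the size of the rise and its error rest on that repeated value. In sDB3 68 genes had 1 value on all 3 arrays, and 2 of them were called. Banding gave 0.05 ± 0.16. Slc6a8, the creatine transporter, rose by 0.44 ± 0.088 and Pcx, pyruvate carboxylase, by 0.43 ± 0.087 (adjusted p = 0.0267 and 0.0275), both lost by centring (0.0729 and 0.0598), Pcx also under quantile normalization (0.0849), and without at least 4 of the single arrays (up to 0.0685 and 0.0748).

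Of 20 tested genes of the adult sarcomere (21 listed) 0 were higher and 1 lower, with a median of -0.086, where 5.37% and 0.997% of all genes were called. Centring left 4 lower, where 3.33% of all genes were, and quantile normalization 0. For 10 of the 20 all DB3 arrays lay below all sDB3 arrays, where this held for 5.74% of all genes. The lower gene before centring was Tmod1, which caps the thin filament (-0.29 ± 0.07, adjusted p = 0.0395, lost without any array but DB3 array 1, up to 0.0998). Myh6, the adult alpha-myosin heavy chain, read 16.57, 16.56 and 16.56 in sDB3 and 16.51, 16.44 and 16.49 in DB3. The DB3 hearts lay below, by -0.086 ± 0.059 (adjusted p = 0.384), at a signal where the array is close to its upper end. Of 20 tested calcium handling genes (24 listed) 0 passed by limma (4 lower and 2 higher at an unadjusted p under 0.05). After centring 2 were lower, where 3.33% of all genes were, namely Ryr2, the calcium release channel, and Casq2, which stores calcium. All DB3 arrays lay below all sDB3 arrays for 6 of the 20, where this held for 5.74% of all genes. Atp2a2, the calcium pump SERCA2, differed by -0.11 ± 0.061 (adjusted p = 0.268), with all DB3 hearts below all sham hearts. Its 5 tested probe sets ranged from -0.87 to -0.044. Kcnj3, a potassium channel of the muscarinic response and on the list of atrial genes, read 10.14, 10.19 and 10.13 and 9.48, 9.87 and 9.39, fell by 0.58 ± 0.13 (adjusted p = 0.0351) and was also lower while banded (-0.79 ± 0.13). Its call ended without any array but DB3 array 2 (up to 0.0982), the DB3 heart with the most Myl7. Xirp1, a protein of the intercalated disc and the lower gene of the hypertrophic list, chosen after its values were seen, fell by 0.41 (adjusted p = 0.0427), a call that ended without any array but sDB3 array 3. Nrap, its partner at the disc, rose by 0.29 ± 0.064 (adjusted p = 0.0313), lost without any 1 array (up to 0.0766), by centring (0.193) and by quantile normalization (0.066). Grk5, a kinase that desensitises adrenergic receptors, rose by 0.59 ± 0.11 (adjusted p = 0.0246), lost without DB3 array 1 or 3 or sDB3 array 2 (up to 0.0652).

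Several of the largest differences lay outside these lists. Inmt, an indolethylamine N-methyltransferase, read 8.07, 7.64 and 7.81 in sDB3 and 9.82, 9.04 and 10.12 in DB3. It rose by 1.82 ± 0.31 (adjusted p = 0.0171), where banding gave -0.0076 ± 0.31, and lay 2.56 ± 0.31 above AB (adjusted p = 0.00171). Its call ended without sDB3 array 2 (adjusted p = 0.0503). Apod, apolipoprotein D, a lipid carrier, read 7.67, 6.97 and 7.02 and 9.33, 8.42 and 9.18 and rose by 1.76 ± 0.28 (adjusted p = 0.0143). Mthfd2, a mitochondrial enzyme of the folate cycle, read 5.60, 5.26 and 5.32 and 7.30, 6.27 and 7.17. DB3 array 2 was the lowest of its group but above all sham hearts, and Mthfd2 rose by 1.52 ± 0.23 (adjusted p = 0.0131), with 1.19 ± 0.23 while banded. Its other tested probe set gave 0.58. Cdh4, a cadherin, rose by 1.45 ± 0.19 (adjusted p = 0.00861), Cnksr1, a scaffold of Ras signalling, by 1.29 ± 0.19 (0.0116) and Lrrcc1, a centrosomal protein, by 1.20 ± 0.18 (0.0131). The effect while banded was 2.57 ± 0.19 for Cnksr1, 0.93 ± 0.18 for Lrrcc1 and 0.65 ± 0.19 for Cdh4, all called higher in AB. For Apod it was 0.76 ± 0.28 and did not pass (adjusted p = 0.0804). Apod, Mthfd2, Cdh4, Cnksr1 and Lrrcc1 passed in each fit that left out 1 array and under both other scalings. Gnb3, a G-protein beta subunit, rose by 1.75 ± 0.41 and Itgbl1, an integrin-like secreted protein, by 1.33 ± 0.29 (adjusted p = 0.037 and 0.0309), both lost without any 1 array (up to 0.102 and 0.0735) and under quantile normalization (0.0685 and 0.0589), and Gnb3 also by centring (0.0525). Eya1, a transcriptional cofactor, read 3.09, 2.63 and 3.28 in sDB3, where it is dim, and 4.26, 4.51 and 4.92 in DB3, at least 1.48-fold higher against the limit of 4 (adjusted p = 0.0253, up to 0.0682 without DB3 array 2 or 3 or sDB3 array 1 or 2).

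Among the larger falls, Kcna1, a potassium channel of nerve, read 5.61, 5.84 and 5.57 in sDB3 and 3.08, 5.12 and 3.36 in DB3. DB3 array 2 was near the sham hearts, and the fall of 1.82 ± 0.45 (adjusted p = 0.0427) was lost without any array but DB3 array 2 (up to 0.122) and under quantile normalization (0.0532). Slc12a5, a chloride transporter, was dim in all DB3 hearts and at least 1.2-fold lower there, against the same limit (adjusted p = 0.0246, up to 0.0665 without DB3 array 1 or sDB3 array 2). Cideb, a protein of lipid droplets, read 6.54, 6.59 and 6.84 and 5.87, 5.95 and 5.11 and fell by 1.02 ± 0.19 (adjusted p = 0.0211) in each fit that left out 1 array and under both other scalings. Hoxa5, a homeobox factor, fell by 0.84 and Prepl, a peptidase-like protein, by 0.88 (adjusted p = 0.0171 and 0.0181), both lost without sDB3 array 2 (0.052 and 0.0521).

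A further 7 genes were chosen after their values were seen from the 62 that passed in each scaling and each fit that left out 1 array. Pik3ip1, an inhibitor of PI3-kinase, read 8.77, 8.95 and 8.74 in sDB3 and 9.89, 9.52 and 9.72 in DB3 and rose by 0.89 ± 0.14 (adjusted p = 0.0143). Pdcd4, which blocks the translation helicase eIF4A, read 8.07, 8.0 and 8.21 and 8.82, 9.04 and 8.84 and rose by 0.81 ± 0.12 (adjusted p = 0.0116). In both genes all DB3 hearts lay clear of the sham hearts. Crebrf, a regulator of the cellular response to starvation, rose by 0.74 ± 0.096 (adjusted p = 0.00861), Prkab2, a subunit of the AMP-activated kinase, by 0.61 ± 0.09 (0.0116) and Nampt, which makes the precursor of NAD, by 0.56 ± 0.095 (0.0165). Aox1, aldehyde oxidase, read 8.38, 8.40 and 8.48 and 9.76, 9.35 and 9.54 and rose by 1.13 ± 0.11 (adjusted p = 0.003). While banded the effects were 0.41 ± 0.14 for Pik3ip1, 0.24 ± 0.12 for Pdcd4, 0.003 ± 0.096 for Crebrf, -0.28 ± 0.095 for Nampt and -0.11 ± 0.11 for Aox1. Popdc2, a membrane protein of the conduction system, fell by 0.39 ± 0.065 (adjusted p = 0.0161).

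Some genes of protein synthesis and of the rapid response were also called higher. Of 29 tested translation factors and tRNA synthetases (32 listed) 4 were higher and 0 lower, where 5.37% of all genes were higher. The list's median was 0.17, and 0 were left by centring or quantile normalization. All DB3 hearts lay above all sham hearts for 18 of the 29, where this held for 22.4% of all genes. The 4 were Aars, Eprs and Tars, which charge transfer RNAs, and Eif3b, of the initiation complex, with differences from 0.27 to 0.32 (adjusted p from 0.0334 to 0.0439). Each was lost without at least 4 of the single arrays (up to 0.116). Of 25 tested immediate early genes 3 were higher, where 5.37% of all genes were. They were the flow-responsive factor Klf2 (1.07 ± 0.28), its relative Klf6 (0.75 ± 0.15) and Myc (0.66 ± 0.15), with adjusted p of 0.0498, 0.0249 and 0.0334. Klf2 was lost without any array but sDB3 array 3, Klf6 without DB3 array 3 or sDB3 array 1 or 2 and Myc without any 1 array (up to 0.132, 0.0638 and 0.0906), and centring and quantile normalization each left 0 of the 3. Of 18 tested clock genes 0 passed by limma (3 higher and 2 lower at an unadjusted p under 0.05), with a median of 0.37, which was 0.18 without sDB3 array 3. Per1, which glucocorticoids also induce, read 6.09, 6.64 and 5.32 and 6.62, 7.65 and 7.72 and differed by 1.31 ± 0.35 (adjusted p = 0.0521). sDB3 array 3 was the lowest of the 6 hearts, and Per1 was chosen after its values were seen.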

How the data were processed

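Total RNA of the left ventricle was extracted on RNeasy columns, and 3 µg per mouse was turned into biotin-labelled cRNA for Affymetrix arrays, per the labels' protocols. The authors deposited 1 table of log2 signals per probe set for the 12 arrays, made with GCRMA per the submitters' processing notes, with version, settings and genome build not given in the sources used here. Only the 34945 probe sets annotated to a single gene symbol were used, which left out 64 controls, 9160 without a symbol and 932 with more than 1. Names come from the platform annotation and were updated by gene ID (34741 found). Probe sets above log2 4 on at least 3 of the 12 arrays were kept (17817), and the one with the highest mean stood for its gene (10435 genes, 4608 of them with more than 1). 0 columns belonged to other samples.

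Groups were compared with limma 3.58.1 in R 4.3.3 (lmFit, eBayes) in 1 model of the 4 groups, with 8 residual and 2.68 prior degrees of freedom, and two-sided p-values were adjusted by Benjamini-Hochberg. An exact test of 3 against 3 arrays cannot go below 0.1. The number of arrays limits the precision, and p-values rest on the spread within groups, pooled over the 4 groups and moderated across genes. They do not take in the choice of scaling or probe set. Replicates were numbered in accession order and pair nothing. The model was tested on simulated data for DB3 against sDB3 with 10435 genes. It recovered 52% of changes of 0.5 and 87% of changes of 1 log2 unit, and 7.33% of its calls were false, above the nominal 5%. These rates come from a single run with independent normal noise. The simulated arrays held no shift such as the 0.129 between the real groups, so the rates need not hold for the real comparison.

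Genes are named by rule: the 15 largest rises and 15 largest falls among non-overlapping calls, up to 4 called members of each of 55 gene lists with the largest difference, and 15 fixed genes. Any other is said to be chosen after its values were seen. The members and lists were chosen with earlier results of these data known.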

Additional observations from a re-analysis of the deposited data

Results flagged for a closer look

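For 23 of the named genes the effect after debanding (DB3 minus sDB3) and that while banded (AB minus sAB) differed. The test was limma's, of the difference itself, at an adjusted p under 0.05. The values are the first effect minus the second in log2 units, and each of them rests on the sAB arrays, whose BioC level stood apart. The effect was lower after debanding for Cilp (-1.92), Nppa (-1.48), Col8a1 (-1.46), Cnksr1 (-1.28) and Nppb (-1.19), genes that banding raised. It was also lower for Ltbp4 (-0.79), Alas1 (-0.79), Tubb4b (-0.76), Calr (-0.86), Cited4 (-0.67), Socs2 (-0.61), P3h2 (-0.57), Hspb3 (-0.53), Nrap (-0.48) and Des (-0.47). It was higher after debanding for Gm19277 (2.44), Inmt (1.83), Eya1 (1.8, dim in sDB3 and AB), Thbs2 (1.03), Pfkfb3 (0.91), Lama5 (0.7), Bckdha (0.62) and Gsn (0.38). Of these Calr was called in opposite directions, higher in AB than in sAB and lower in DB3 than in sDB3. For Calr DB3 did not differ from AB by limma (-0.083, adjusted p = 0.486), while the sham means were 13.03 (sDB3) and 12.25 (sAB). Bckdha was lower in AB than in sAB and higher in DB3 than in sDB3, the latter call being lost by centring and by quantile normalization (adjusted p = 0.124 and 0.0566). The part of the sAB arrays in these differences was not tested.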

How the results depend on the processing

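Beside the 664 calls (560 higher, 104 lower), quantile normalization gave 188 (83 higher), centring 127 higher and 348 lower, no filter on dim probe sets 323 (265 and 58), the probe set with the highest variance 376 (320 and 56), an unmoderated analysis of variance 427 (358 and 69), and trend and robust moderation 160 lower. A fit without the sAB arrays, chosen after the data were seen, gave 400 (347 and 53), and a fit of the groups compared 0 (0 and 0). The last 2 have fewer arrays to estimate the spread. For the others the cause was not tested. Leaving out 1 array gave 170 to 459 calls, 133 to 394 higher and 25 to 65 lower. It gave 1139 to 1701 for AB against sAB (2058 in full), 365 to 824 for DB3 against AB (956) and 152 to 567 for the difference of effects (630). DB3 against AB gave 629 with its groups alone, and the difference of effects 338 without the filter. That difference needs all 4 groups, so no smaller fit was run. Of the 101 named calls, 60 passed after centring, 48 after quantile normalization, 99 with trend and robust moderation, 61 without the sAB arrays and 35 to 50 without 1 array. With the probe set of highest variance Mcm4 turned to -0.19 and Ndufb8 to 0.19, and their probe sets disagree. No paired analysis was possible because the labels give no shared replicate numbers. Dim genes near the floor, which held 29.0% to 31.5% of probe sets, have compressed differences.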

Other observations

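Other named genes follow as values. Cd83, a marker of activated immune cells, read 5.19, 5.54 and 6.18 in sDB3 and 6.71, 6.93 and 6.68 in DB3, with the lowest DB3 heart above the highest sham heart (adjusted p = 0.0268, up to 0.0685 without any array but sDB3 array 3). The Cd83 call was also lost under quantile normalization (0.0551). Erg, a factor of endothelial identity, was the only 1 of 22 tested endothelial markers called and rose by 0.49 ± 0.10 (adjusted p = 0.0275), where 5.37% of all genes were called higher. Its call was lost without any DB3 array or sDB3 array 2 (up to 0.0725), by centring (0.0529) and by quantile normalization (0.0673). Lama5, a laminin chain of vascular basement membrane, rose by 0.43 ± 0.11 (adjusted p = 0.0449), lost without any 1 array (up to 0.114), by centring (0.158) and by quantile normalization (0.145). Bckdha, a subunit of the enzyme that commits branched-chain amino acids to breakdown, read 11.18, 11.18 and 11.20 and 11.64, 11.48 and 11.50. It rose by 0.35 ± 0.077 (adjusted p = 0.0318, up to 0.0867 without any 1 array), a call also lost by centring (0.124) and quantile normalization (0.0566). Of 18 tested genes of that pathway 9 were higher in DB3 than in AB and 0 lower, where 9.16% of all genes were called in either direction.

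Itgb1bp2, melusin, a muscle protein at the costamere, read 11.87, 11.80 and 11.71 in sDB3 and 11.48, 11.53 and 11.28 in DB3. The groups did not overlap, and it fell by 0.36 ± 0.076 (adjusted p = 0.0287), lost without DB3 array 1 or 3 or sDB3 array 1 or 2 (up to 0.0715). Dlat, of the pyruvate dehydrogenase complex, fell by 0.27 (adjusted p = 0.0362, up to 0.096 without any 1 array and 0.066 under quantile normalization). Ahnak2, a large scaffold protein, rose by 1.47 ± 0.27 (adjusted p = 0.0203, up to 0.0551 without DB3 array 2 or sDB3 array 2). Chd6, a chromatin remodeller, fell by 1.18 (adjusted p = 0.0385, up to 0.102 without any array but sDB3 array 3), and in it sDB3 array 3 lay nearest to the DB3 hearts, with 9.04, 9.18 and 7.93 in sDB3 and 7.70, 7.70 and 7.20 in DB3. Armcx4, Aif1l, Smim3 and Tff1 fell by 1.07, 0.99, 0.82 and 0.80 (adjusted p from 0.0309 to 0.0498), and each was lost without at least 4 of the single arrays (up to 0.108).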
